A study of Piaractus mesopotamicus with 6 samples.

Results

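The immediate early AP-1 and Egr genes are described here in a freshwater fish, the pacu (Piaractus mesopotamicus), as 10 genes found by an exact match of the gene symbol. They are fosab, fosb, fosl1a and fosl2 of the Fos family, jun, junba and junbb of the Jun family, egr1, and the Atf genes atf3 and atf4a. All 10 were found, on 42 of the 71447 assembled transcripts, among 16347 gene names in all. The study sequenced poly(A) RNA from 3 libraries of primary muscle cells in culture and 3 libraries of epaxial fast-twitch muscle. All fish were wild-type juveniles of 12 to 20 g, kept at 28 °C with 12 h of light and 12 h of dark and fed commercial food to satiety once a day. The culture medium was DMEM to which 10% serum (fetal bovine) and 1% of an antibiotic mixture had been added, and each isolation pooled muscle from 12 fish. Tissue was taken from 6 fish, and the labels do not say whether a tissue library holds RNA of 1 animal or of several, so p-values measure only the spread between these libraries, which may be partly technical. The labels also give neither the days in culture nor the time between the last change of medium and harvest.

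Immediate early genes are transcribed within minutes of a stimulus such as serum, stretch or injury, because the factors that switch them on are already in the cell. Fos proteins pair with Jun proteins to form AP-1, which binds DNA, and Jun proteins can also pair with each other, whereas Fos proteins need a partner. Egr1 is a zinc finger transcription factor that answers many of the same signals, Atf3 is a stress-induced repressor that can pair with Jun, and Atf4 is a stress factor controlled mainly at translation.

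Levels are normalised read counts, that is reads divided by 1 size factor per library, and a change is the difference of mean log2(value + 1), cells minus tissue. A gene rose or fell where limma gave a Benjamini-Hochberg adjusted p below 0.05 over all transcripts tested. No transcript lengths were used, so levels are compared between samples and not between genes. By the transcript with the highest mean, 7 of the 10 genes passed the test, 4 higher and 3 lower in cells, where 52.2% of 15496 names passed, 30.5% higher and 21.7% lower. With all transcripts of a name summed, 6 passed, 3 in each direction, against a background of 51.8%, 30.5% higher and 21.3% lower. The groups of 8 genes did not overlap by the highest-mean transcript, which held for 66.3% of names. For a set of 10 genes these shares are not far from those of the whole transcriptome, and what follows is about which of them went which way. The median change was 1.09 over the 10 genes and 0.59 over all names.

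**Figure D1:**
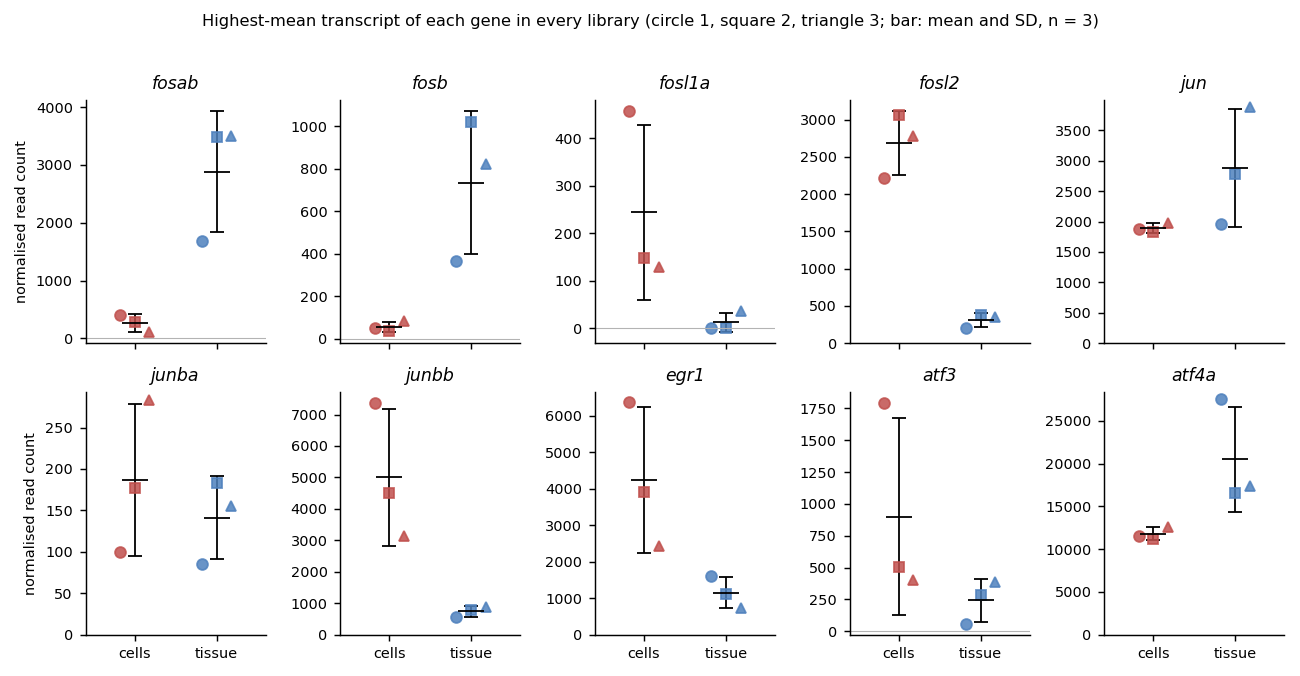
Normalised read count (linear axes that include 0, one scale per gene) of the highest-mean transcript of each of the 10 genes, with cells in red, tissue in blue and the mean and SD of 3 libraries as bars. The fosab and fosb points lie higher in tissue, the fosl2, junbb and egr1 points lie higher in cells, and the jun and junba points of both groups overlap.

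The canonical Fos genes fosab and fosb were lower in cells than in tissue and fosl2 was higher, as was fosl1a by its highest-mean transcript but not past the test by its sum. The highest-mean transcript of fosab, the fish counterpart of c-Fos, stood at 405, 287 and 108 in cell libraries 1, 2 and 3 and at 1685, 3481 and 3495 in tissue libraries 1, 2 and 3. By these values the groups did not overlap, and the lowest tissue library lay far above the highest cell library. With libraries scaled to equal totals the groups overlapped, as given below. The mean was 267 ± 150 in cells against 2887 ± 1041 in tissue (SD, n = 3), 10.8-fold higher in tissue. The log2 change was −3.55 (SE 0.53, limma adjusted p = 0.00144). In such bulk samples fewer cells of a type and less RNA per cell cannot be told apart. For fosb, a second Fos gene with a transactivating product, the values were 48.5, 35.1 and 83.7 in cells and 364, 1018 and 822 in tissue. The groups again did not overlap by these values but did at equal totals. The log2 change was −3.66 (SE 0.49, limma adjusted p = 0.000895).

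The Fos-related antigen fosl2, known from mammals as Fra-2 and as a slower and longer-lasting member of the family, went the other way. Its highest-mean transcript stood at 2215, 3059 and 2775 in cells and at 203, 377 and 346 in tissue. All 3 cell libraries exceeded the highest tissue library, and the mean was 8.69-fold higher in cells, with a log2 change of 3.15 (SE 0.27, limma adjusted p = 0.00014). Among the cell libraries the highest value was 1.38 times the lowest, a narrower spread than for fosab, at 3.75 times.

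For fosl1a, the counterpart of Fra-1, which in mammals is common in migrating and transformed cells, the result depended on which transcripts were counted. Its highest-mean transcript stood at 457, 147 and 129 in cells and at 0, 0 and 35.8 in tissue, with a log2 change of 5.95 (95% interval 2.40 to 9.51, limma adjusted p = 0.0156). This call was lost without cell library 1 (adjusted p = 0.0664) or cell library 2 (adjusted p = 0.0533). The change was 5.09 without tissue library 1 or 2, and without tissue library 3 it was 7.69. A transcript of a second assembled gene under the same name stood at 669 in tissue library 1, at 0 and 13.9 in the other tissue libraries, and between 0 and 26.6 in cells. That single transcript held 90.0% of the summed fosl1a level of the tissue, and the sum changed by a log2 value of 2.44, with a 95% interval from −1.15 to 6.02 that includes 0. Without tissue library 1 the sum passed, at a log2 change of 3.98 (limma adjusted p = 0.0220), and without tissue library 2 it was 0.87. Whether both assembled genes are fosl1a could not be checked, since no sequences were used.

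Of the Jun genes, junbb rose, jun did not pass the test, and neither did junba. The highest-mean transcript of junbb, the counterpart of JunB and often a weaker activator than c-Jun, stood at 7381, 4506 and 3127 in cells and at 556, 797 and 883 in tissue. The groups were fully apart, at 5005 ± 2170 against 746 ± 169 (SD, n = 3), with a log2 change of 2.68 (SE 0.34, limma adjusted p = 0.000663).

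The single transcript of jun, which encodes the main partner of Fos, stood at 1875, 1823 and 1978 in cells and at 1958, 2781 and 3889 in tissue. The cell libraries lay within 1.08 times of each other, and cell library 3 lay just above tissue library 1. The log2 change of −0.55 had a 95% interval from −1.15 to 0.05 and an adjusted p of 0.116 in limma. Without tissue library 1 the change was −0.80 and passed (limma adjusted p = 0.0141), and with libraries scaled to equal totals it was 1.99, the opposite direction. The component of the assembly that held jun also held june and lurap1l. Whether reads of jun and june were split was not tested.

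The other JunB paralog, junba, stood at 99.7, 177 and 283 in cells and at 85.6, 182 and 155 in tissue, and the groups overlapped. Its log2 change was 0.35 (95% interval −0.80 to 1.49, limma adjusted p = 0.573), and it changed sign, to −0.016, without cell library 3. The name covered 3 assembled genes that did not move alike. In one of them the only transcript stood at 0, 6.15 and 5.67 in cells and at 85.6, 53.6 and 65.6 in tissue and was lower in cells (log2 change −4.23, limma adjusted p = 0.00859), although 3 reads correspond to 5.95 to 8.02 in the tissue libraries. It held a larger share of the summed junba level in tissue than in cells, where it was 1.07%. The other 2 assembled genes of junba and that of junbb belonged to one component of the assembly, which also held ermp1, pnrc1 and sgsm3. Reads of these paralogs may have been split between them, which was not tested.

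The zinc finger gene egr1 was higher in culture. Its highest-mean transcript stood at 6369, 3900 and 2433 in cells and at 1597, 1129 and 738 in tissue. The lowest cell library lay above the highest tissue library, and the mean was 3.67-fold higher in cells (log2 change 1.83, SE 0.41, limma adjusted p = 0.00961). The summed level gave 1.74 (adjusted p = 0.0125), and both values passed the test without any 1 of the 6 libraries.

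The highest-mean transcript of atf3 stood at 1793, 508 and 400 in cells and at 58.8, 284 and 388 in tissue. The groups just separated, since the lowest cell library and the highest tissue library were close, and cell library 1 was far above the other two. The log2 change was 1.93, with a 95% interval from −0.04 to 3.90 that includes 0 (limma adjusted p = 0.0957). It was 1.27 without cell library 1, lower still without tissue library 1, and 4.46 at equal totals, where it passed (limma adjusted p = 0.00291). In the summed level the groups overlapped, and the change of 2.18 became 1.52 without cell library 1 and 1.02 without tissue library 1. For atf4a the values were 11546, 11212 and 12645 in cells and 27565, 16583 and 17372 in tissue. The cell libraries were close to each other and all lower than the tissue, with a log2 change of −0.76 (SE 0.26, limma adjusted p = 0.0456), but the sign was the opposite, at 1.78, with equal library totals. This call was lost without cell library 1, 2 or 3 (adjusted p 0.104, 0.162 and 0.109) and without tissue library 3 (0.0564).

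**Figure D2:**
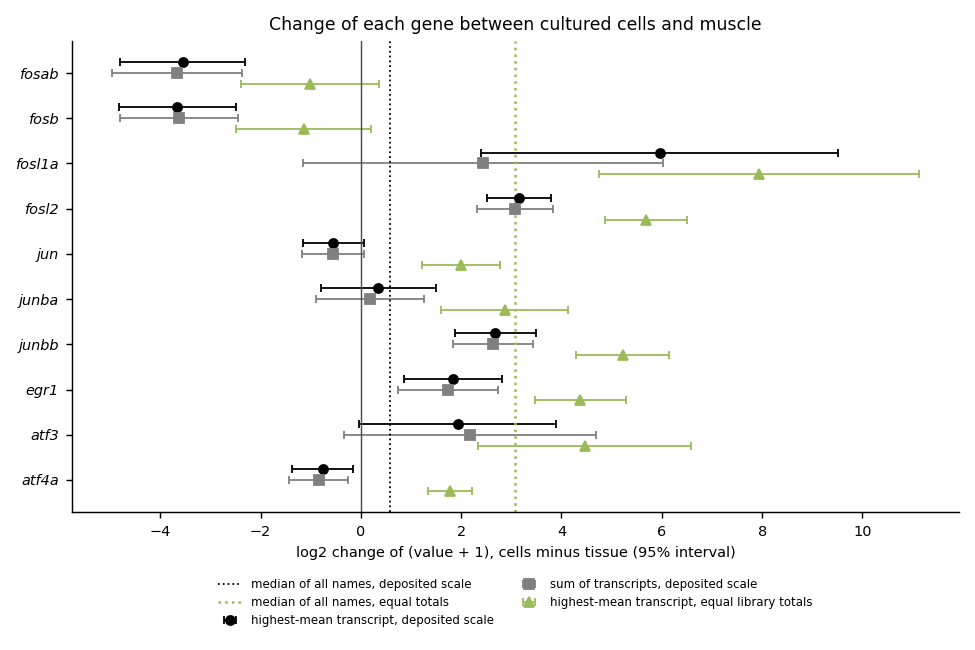
Log2 change of (value + 1), cells minus tissue, with 95% intervals, for the highest-mean transcript (black), the sum of transcripts (grey) and the highest-mean transcript at equal library totals (green). Dotted lines are the medians of all names, 0.59 on the deposited scale and 3.08 at equal totals, and fosab, fosb, jun, junba and atf4a lie left of the median of their own scale, although jun and atf4a are below 0 on the deposited scale and above 0 at equal totals.

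The scaling of the libraries set the zero of all these changes. Between 105795157 and 115224600 reads per cell library and between 118183731 and 124752600 per tissue library were recovered, but the deposited values summed to 45059080 to 47437391 in cells and 247390125 to 316135429 in tissue. With libraries scaled to equal totals, the median change of all names moved from 0.59 to 3.08. Of the 10 genes 8 were then higher and 0 lower, beside 79.0% and 8.21% of all names. The sums gave the same counts, beside 80.2% and 7.37%. The decreases of fosab, at −1.01 (limma adjusted p = 0.137), and fosb, at −1.14 (0.0947), kept their sign and no longer passed. The groups of both genes then overlapped. For fosab the values at equal totals were 1424, 960 and 371 in cells and 844, 2229 and 2231 in tissue. For fosb they were 170, 117 and 287 in cells and 182, 651 and 524 in tissue. Relative to the median of all names, the order was the same on both scales. This is no separate support, since rescaling moves all changes but those of low genes by nearly the same amount. On the deposited scale fosab lay −4.14 from the median and fosb −4.25, against −4.10 and −4.22 at equal totals. The corresponding values were 2.57 and 2.61 for fosl2, 2.10 and 2.14 for junbb, 1.25 and 1.29 for egr1, −1.14 and −1.09 for jun, and −1.35 and −1.30 for atf4a.

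Markers of several cell types differed between the groups. Summed fast fibre markers (12 of 12 listed genes were in the table) stood at 569 to 5153 in cells and at 13551593 to 19704029 in tissue. Leukocyte markers stood at 15.7 to 27.2 against 6542 to 9124 (7 of 15), with lcp1 and laptm5 at 0 in the cells. Erythrocyte markers (6 of 9) stood at 1.56 to 15.7 against 2616 to 22963 with gata1a at 0, endothelial markers (13 of 15) at 2468 to 2922 against 4275 to 5285 with flt1 at 0, and Schwann and neuronal markers (7 of 11) at 1652 to 1934 against 12261 to 16374 with mbpa and plp1b at 0. The Schwann and neuronal sum was mostly pmp22b in both groups, and without it the sums were 146 to 396 in cells and 3028 to 4004 in tissue. All 6 Schwann and neuronal genes tested were lower, and at equal totals 3 were. At equal totals pmp22b changed by −0.19 and did not pass (limma adjusted p = 0.437). Of the 12 endothelial genes tested 1 was higher, 8 lower and 3 not past the test, and at equal totals 4 were higher and 4 lower. These shares were 8.33% higher and 66.7% lower, and 33.3% each at equal totals. Beside these and the other marker counts, 30.5% of all names were higher and 21.7% lower. At equal totals 79.0% of all names were higher and 8.21% lower. The endothelial gene of highest mean, kdrl, changed by a log2 value of 0.08 and did not pass (limma adjusted p = 0.802). Fibroblast markers (10 of 12) stood at 580178 to 728184 in cells and at 344611 to 421160 in tissue. That sum was mostly col1a2, and without it the sums were 192380 to 206384 in cells and 115838 to 135162 in tissue. Of the 10 fibroblast genes 6 were higher, 2 lower and 2 not past the test, col1a2 among the last (limma adjusted p = 0.316). Myogenic markers (9 of 9) stood at 2647 to 5376 in cells and at 40814 to 55064 in tissue. No gene of either list was at 0 in all cell libraries. The myogenic sum in tissue was mostly desma, the desmin gene, also expressed by muscle fibres. Without it the sums were 2470 to 3847 in cells and 2664 to 2910 in tissue, but single genes went both ways. Of the 9 genes 3 were higher, 2 lower and 4 not past the test. The gene meox1 stood at 1145, 1173 and 1021 in cells and at 439, 300 and 551 in tissue. In contrast, myod1 stood at 39.9, 86.9 and 238 in cells and at 1297, 1069 and 1207 in tissue. Its log2 change was −3.64 (limma adjusted p = 0.00222), and −1.12 at equal totals, where it did not pass. The part of these differences in the changes of fosab, fosb, fosl2, junbb and egr1, and of the related genes below, was not tested.

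The transcripts of a gene mostly moved together. Of the 42 transcripts 2, 1 each of fosab and egr1, were below the filter on low values. Of the 40 tested, 14 rose, 14 fell and 12 did not pass, where 47.1% of all transcripts tested passed, 27.4% higher and 19.7% lower. All 8 fosl2 transcripts, both of junbb and the 2 tested of egr1 were higher in cells, and the 3 tested of fosab and 6 of 7 of fosb were lower. None of the 4 atf3 transcripts passed, and 4 of 5 atf4a transcripts were lower. Transcripts of one assembled gene can share reads, and for atf4a the lowest of the 4 main transcripts had 86.8% of the mean of the highest, so these counts are not independent measurements.

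**Figure D3:**
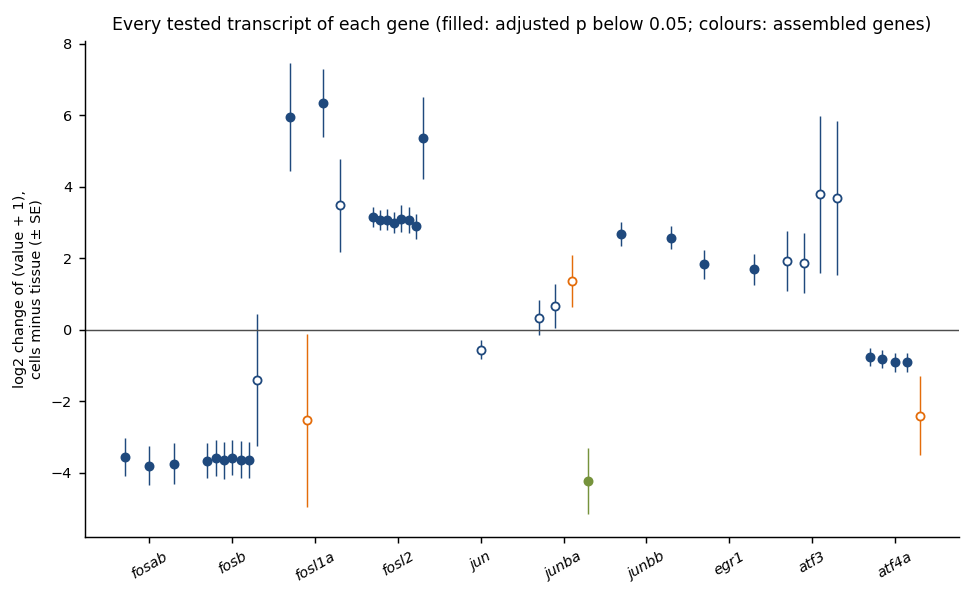
Log2 change of (value + 1), cells minus tissue, with its SE, of each of the 40 tested transcripts, where filled points passed the test and colours mark the assembled genes of a name. The transcripts of fosab, junbb and egr1 sit close together within each gene. Those of fosl2 do so too, apart from its lowest-level transcript, at 5.36 (SE 1.15). The second assembled gene of fosl1a and the third of junba lie below the others of their name.

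Ratios between 2 genes within a library do not depend on the scaling of that library, and the pairs below were chosen after the levels had been seen, so they carry no test. The log2 ratio of fosl2 to fosab was 2.45, 3.41 and 4.67 in cell libraries 1, 2 and 3 and −3.05, −3.20 and −3.33 in tissue libraries 1, 2 and 3. It differed by 6.70 between the group means, more than the spread within either group. The ratio of junbb to jun was 1.98, 1.30 and 0.66 in cells and −1.81, −1.80 and −2.14 in tissue. The log2 ratio of junbb to jun differed by 3.23 between the group means. On which side of 0 a ratio lies is not read here, since no transcript lengths were used. The log2 ratio of fosb to fosab was −2.13 ± 1.53 in cells and −2.02 ± 0.22 in tissue (SD, n = 3), with cell library 3 apart at −0.37. The ratio of egr1 to junbb was −0.21, −0.21 and −0.36 in cells, where the genes kept nearly one ratio although the highest level was 2.62 times the lowest for egr1 and 2.36 times for junbb, and 1.52, 0.50 and −0.26 in tissue.

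**Figure D4:**
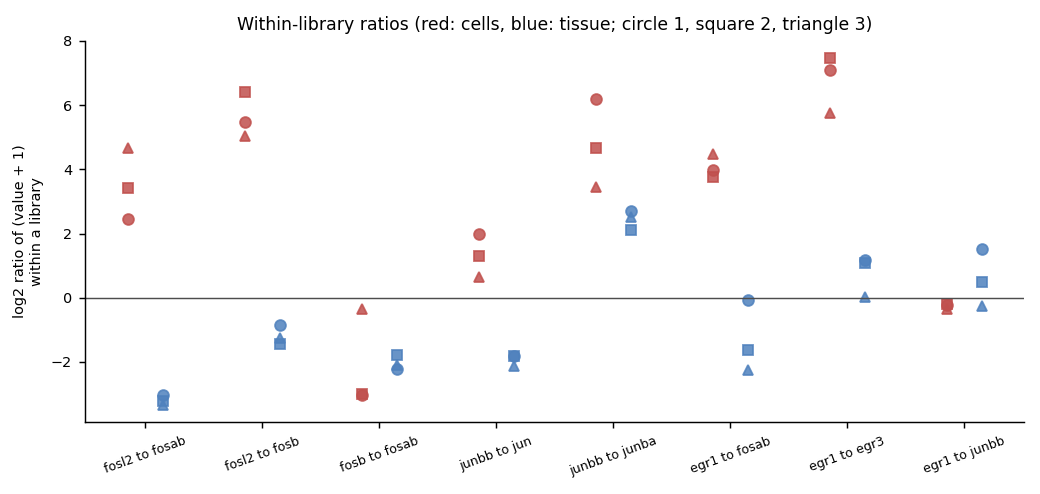
Log2 ratio of (value + 1) of pairs of genes within each library, with cells in red and tissue in blue. The points of fosl2 to fosab lie between 2.45 and 4.67 in cells and between −3.33 and −3.05 in tissue, while those of fosb to fosab overlap.

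The libraries of a group also differed among themselves. Cell library 1 was the highest cell library for 5 of the 10 genes (fosab, fosl1a, junbb, egr1 and atf3), against 34.1% of all names. Over cell libraries 1, 2 and 3 the summed fast fibre markers stood at 569, 3502 and 5153, and the myogenic markers at 2647, 3314 and 5376. The levels of egr1, junbb and fosab fell in that order of libraries. Whether these orders are linked was not tested. Tissue library 1 was the lowest of the tissue for 8 of the 10, against 48.0% of all names, counting fosl1a, at 0 in libraries 1 and 2 alike. The exceptions were egr1 and atf4a, both highest there. In tissue library 1, 23.6% of all transcripts were at 0, against 12.6% in each of the other tissue libraries. There 1 read was worth 2.67, against 1.98 and 1.99 in tissue libraries 2 and 3. Between libraries of a group, the highest over the lowest value ranged from 1.08 for jun to 4.48 for atf3 in cells, and reached 6.59 for atf3 in tissue, leaving out fosl1a, for which no such ratio can be formed because it was at 0 in tissue libraries 1 and 2.

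Among 18 tested AP-1 and Atf relatives, 6 rose, 3 fell and 9 did not pass, or 33.3% higher and 16.7% lower beside 30.5% and 21.7% of all names, with a median change of 0.68 beside 0.59 for all names. Without cell library 1 only 3 rose, and at equal totals 15 rose and 1 fell, 83.3% and 5.56% beside 79.0% and 8.21%. The paralog fosl1b stood at 308, 242 and 216 in cells and was listed at 0 in all tissue libraries, at least 38.4-fold higher in cells against a floor of 3 reads per library. The greatest decrease was that of mafaa, a large Maf factor, at 7.04, 3.51 and 10.0 in cells and 3951, 4130 and 3183 in tissue (log2 change −8.98, limma adjusted p = 1.37e-05), while the sum of its transcripts gave −4.84. The other genes that fell, picked out after their values were seen, were maf at −3.20 (−0.69 at equal totals, not passing) and jund, the Jun gene least dependent on stimuli, at −1.22. The jund change lost its call without cell library 3 (adjusted p = 0.0583) and was 1.32 at equal totals. The activating factor atf5b, at a log2 change of 0.98, did not pass (adjusted p = 0.0534) but passed without tissue library 2.

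Among the relatives of egr1, egr3 fell and nab2 rose. Nab corepressors bind Egr proteins and restrain them. Of 5 tested genes of the Egr family and these corepressors, 3 rose and 1 fell, with a median of 2.06. That was 60.0% higher and 20.0% lower, beside 30.5% and 21.7% of all names. The counts were the same at equal totals, where 79.0% of all names were higher and 8.21% lower. Without any 1 of the cell libraries or without tissue library 1 or 3, 2 rose. The gene that fell was egr3, with 45.4, 21.1 and 44.0 in cells and 711, 532 and 726 in tissue (log2 change −4.18, limma adjusted p = 0.000169). Within each library the log2 ratio of egr1 to egr3 lay from 5.76 to 7.47 in cells and from 0.023 to 1.17 in tissue. The corepressor nab2 rose by a log2 change of 2.06 (limma adjusted p = 0.00696). The related zinc finger gene wt1b was listed at 0 in all tissue libraries and was at least 13.2-fold higher in cells. The change of nab1b, at 5.01 (limma adjusted p = 0.0320), lost its call without any 1 library other than tissue library 2, with values from 84.1 to 172 in cells and of 0, 43.6 and 0 in tissue.

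**Figure D5:**
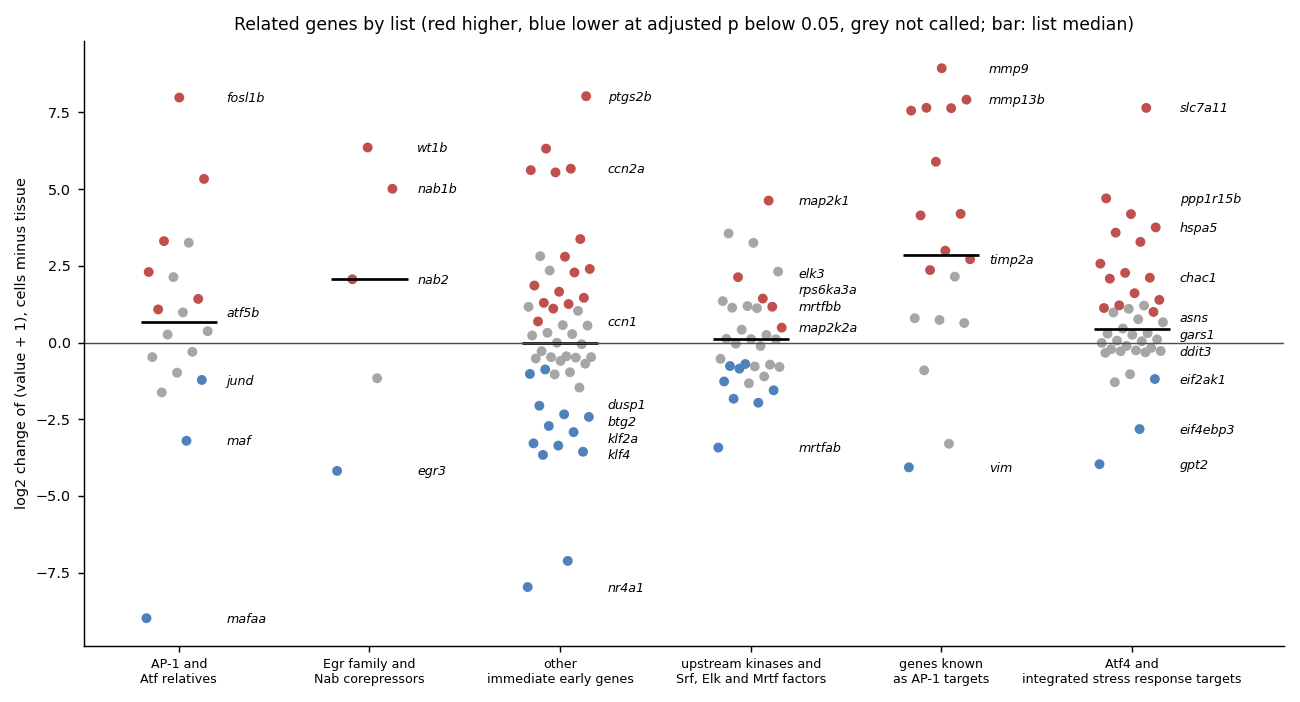
Log2 change of (value + 1), cells minus tissue, of the tested genes of each related list on the deposited scale, red higher, blue lower and grey not passing the test, with the list median as a bar. Genes known as AP-1 targets have the highest median, 2.86, and the other immediate early genes lie on both sides of 0 with a median near it, a split that moved to 38 higher and 4 lower at equal totals.

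Of 51 other immediate early genes tested, 16 rose, 13 fell and 22 did not pass, with a median of −0.01. The shares of 31.4% higher and 25.5% lower were near those of all names, 30.5% and 21.7%, and at equal totals 38 rose and 4 fell, 74.5% and 7.84%. The orphan nuclear receptor gene nr4a1 fell, from 5740, 2916 and 4325 in tissue to 26.2, 12.7 and 11.3 in cells (log2 change −7.97, limma adjusted p = 2.12e-05, and −5.73 by the sum of its transcripts). The genes klf2a, klf4 and btg2, chosen after their values were seen, also fell, with log2 changes of −3.56, −3.66 and −3.29, and at equal totals btg2 no longer passed (−0.75, limma adjusted p = 0.0516). The first 2 encode Krüppel-like factors and the third an antiproliferative protein. The MAP kinase phosphatase gene dusp1, chosen likewise, changed by −2.06 and by 0.48 at equal totals.

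On the rising side, ccn2a, which encodes a secreted matrix protein, stood at 11176, 19740 and 14383 in cells and at 187, 367 and 348 in tissue (log2 change 5.67, limma adjusted p = 3.3e-05). The cyclooxygenase gene ptgs2b was listed at 0 in all tissue libraries and was at least 40.6-fold higher in cells. The change of ccn1 was small, at 0.69 (limma adjusted p = 0.0396), and the call was lost without any 1 library other than cell library 1, with adjusted p up to 0.118.

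Among 33 tested upstream kinases and Srf, Elk and Mrtf factors, which relay growth factor and actin signals to immediate early promoters, 5 rose, 8 fell and 20 did not pass, with a median of 0.11. The shares were 15.2% higher and 24.2% lower, beside 30.5% and 21.7% of all names. At equal totals 26 rose and 1 fell, 78.8% and 3.03% beside 79.0% and 8.21%, and without cell library 2 the counts on the deposited scale were 2 and 5. Without cell library 3, 2 rose, and without cell library 1 or tissue library 1, 3 rose. The kinase gene map2k1 (Mek1) stood at 1762, 2293 and 2240 in cells and at 72.2, 45.6 and 175 in tissue (log2 change 4.63, limma adjusted p = 0.000246). The Srf coactivator gene mrtfab was lower in cells, with 681, 565 and 531 against 7961, 5870 and 5427 (log2 change −3.42, limma adjusted p = 3.52e-05). The others that rose, chosen after their values were seen, were elk3 (2.13), mrtfbb (1.17), rps6ka3a (1.43) and map2k2a (0.49). The call of map2k2a was lost without any 1 of the libraries, that of rps6ka3a without any 1 but tissue library 2, and that of mrtfbb without cell library 2 or 3.

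Of 18 tested genes known, mainly from mammals, as AP-1 targets, 11 rose, 1 fell and 6 did not pass, with a median of 2.86 beside 0.59 for all names. This was 61.1% higher and 5.56% lower, beside 30.5% and 21.7% of all names. At equal totals 15 rose, or 83.3%, near the 79.0% of all names, and 1 fell. The median was then 5.39 beside 3.08 for all names. Matrix enzyme genes were among those that rose. The gelatinase gene mmp9 stood at 5004, 8464 and 2977 in cells and at 16.0, 7.93 and 5.97 in tissue (log2 change 8.94, limma adjusted p = 2.84e-05). The collagenase gene mmp13b changed by 7.92 and the metalloproteinase inhibitor gene timp2a by 2.71. The gene that fell, chosen after its values were seen, was a transcript named vim, the vimentin gene, at −4.07 (limma adjusted p = 0.000117), or −2.25 by the sum. These genes have other regulators as well, and the list is not a measure of AP-1 activity. Like the other lists it was chosen with earlier results of these data known, so its shares beside those of all names are a description.

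Of 41 tested genes known as targets of Atf4 or parts of the integrated stress response, 15 rose, 3 fell and 23 did not pass, with a median of 0.46 beside 0.59 for all names. The shares were 36.6% higher and 7.32% lower, beside 30.5% and 21.7%, and at equal totals 37 rose and 1 fell, 90.2% and 2.44% beside 79.0% and 8.21%. Without tissue library 2 the median was 0.75 beside 0.60 for all names, the other way round, and without tissue library 3 it was 0.63 beside 0.61. Without tissue library 1 the median was 0.062 beside 0.45 for all names, and 5 fell. Without cell library 1 the median was 0.35 beside 0.58. The endoplasmic reticulum chaperone gene hspa5 stood at 11313, 10211 and 9562 in cells and at 342, 1200 and 1092 in tissue (log2 change 3.75, limma adjusted p = 0.000595). The cystine transporter gene slc7a11 stood at 1295, 85.6 and 71.0 in cells and was listed at 0 in tissue, at least 72.8-fold higher on average. It was thus far higher in cell library 1 than in the others, and its log2 change was 7.65, or 6.30 without that library and 8.26 and 8.39 without cell library 2 or 3. The phosphatase subunit gene ppp1r15b stood at 82.5, 12.3 and 14.8 in cells and was also listed at 0 in tissue, at least 5.50-fold higher on average. Most of that mean came from cell library 1, and the log2 change went from 4.70 to 3.86 without this library. Cell library 1 was the highest cell library for 30 of the 41 genes.

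Of genes of this list chosen after their values were seen, chac1, a glutathione-degrading enzyme gene, rose by 2.11 (limma adjusted p = 0.00927). The classic Atf4 targets asns, at 0.29, and ddit3, at −0.28, did not pass (adjusted p = 0.510 and 0.330), and asns was −0.078 without tissue library 1 while ddit3 was 2.26 at equal totals. The tRNA synthetase gene gars1 stood at 7493 ± 310 in cells and 7179 ± 301 in tissue (SD, n = 3), with a log2 change of 0.06. The genes that fell were gpt2 (−3.96), eif4ebp3 (−2.82, and −0.31 at equal totals) and eif2ak1 (−1.19). The eif2ak1 change was 1.35 at equal totals, and leaving out any 1 library other than number 1 of either group ended its call.

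The names whose pattern over the 6 libraries was most like a given gene were found by the root mean square difference of centred log2(value + 1), among 13015 names. For egr1 they included abtb2b and slc35f2, each at a difference of 0.29. For fosab they were ptpn11b (0.22), tspan7b (0.28) and gcgrb (0.33). For jun, whose values in cells were nearly level, they were rpz (0.063), baiap2a (0.064) and plecb (0.071). For atf3 they were fam102ab (0.38), zbed4 (0.40) and hmox2a (0.40). Over 6 libraries and so many names such likeness is a description.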

How the data were processed

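RNA was sequenced from 3 libraries of cultured cells and 3 of tissue. The tools listed in the submitters' processing notes are DESeq2, Bowtie2, Trimmomatic and FastQC 0.11.8, beside the build GRCz11, with no role given. How reads matching several transcripts were handled is not given in the sources used here. Expression is held in 1 table: the authors' deposited table holds normalised counts of Trinity transcripts. In each library 100% of values were whole multiples of 1 step, within 0.01, and 1 read was worth 0.391 to 0.439 in cells and 1.98 to 2.67 in tissue, so 3 reads correspond to 1.17 to 1.32 and 5.95 to 8.02 (counting error only).

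The R package limma (3.58.1, R 4.3.3) was applied to log2(value + 1), with a trended prior (2.93 prior and 4 residual degrees of freedom), over the 65662 transcripts that reached 10 in 3 libraries or more, and over 15714 summed names, with Benjamini-Hochberg adjustment over each table. The scale understates changes of low genes. The fit was tested on simulated data. No libraries were duplicates (chi-square per degree of freedom 58.8 to 219.7), and correlations were 0.929 to 0.961 among cells, 0.816 to 0.866 among tissue and 0.316 to 0.430 between groups.

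The genes and lists were chosen with earlier results of these data known. Of each list, counts are given, with the 2 genes of highest mean and the 2 called genes with the largest change and no overlap; marker lists are given as sums. Some genes that these rules name are not reported here. Other genes named were chosen after their values were seen. The planned edgeR and DESeq2 fits were not run, and limma's voom on recovered reads was used. No genome or sequence was used here. Tables were handled with pandas 2.3.3 (Python 3.11.15).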

Additional observations from a re-analysis of the deposited data

How the results depend on the processing

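With libraries scaled to equal totals, 55861 transcripts passed in place of 30949, 50688 higher and 5173 lower. Of the 10 genes 8 were then higher and 0 lower, by the highest-mean transcript and by the sum. Of all names 79.0% were higher and 8.21% lower by transcript, and 80.2% and 7.37% by sum. Directions then reversed for jun (1.99, transcript and sum), atf4a (1.78, sum 1.70), jund (1.32), dusp1 (0.48), ddit3 (2.26) and eif2ak1 (1.35). Leaving out 1 library gave 5 to 8 of the 10 genes past the threshold by transcript and 5 to 8 by sum, and 22714 to 33781 transcripts, 11964 to 20095 of them higher. Leaving out 1 library, junba ranged from −0.016 (without cell library 3) to 0.73, its sum from −0.15 (likewise; −0.063 without tissue library 1) to 0.53, and asns from −0.078 (without tissue library 1) to 0.53. The causes were not tested. Of 869 values of 58 single-gene results under the alternatives, 787 kept direction and side of the threshold, 55 lost their call, 15 gained one and 12 reversed. Same-numbered libraries did not deviate together (r −0.063, −0.045 and −0.017), and whether they share more than a number cannot be told from this. With the replicate number as a block 28917 of the 65662 transcripts passed, in place of 30949. Of the 10 genes 6 then passed by transcript and 5 by sum, atf4a losing its call (limma adjusted p = 0.0983 and 0.0629). The planned edgeR and DESeq2 fits were not run. Depth limits low tissue values, where 3 reads correspond to up to 8.02.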
